A study of Mus musculus with 51 samples.

Results

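The genes described here encode the cytosolic HSP90 proteins, 6 of their co-chaperones and the chaperonin pair of the mitochondrial matrix. They were chosen by symbol, and all 10 were found among the 24421 genes of the count tables. RNA came from the medial prefrontal cortex of 17 adult male C57BL/6J mice, and each mouse gave 3 preparations, for 51 libraries. Astrocytes were captured with ACSA2 beads after the tissue had been dissociated and its myelin removed, microglia were then taken from what those beads left behind with CD11b beads, and total homogenate was a 5% part of the suspension set aside before dissociation. The 9 mice of the chronic intermittent ethanol (CIE) group received ethanol at 1.6 g/kg with pyrazole at 1 mmol/kg, an inhibitor of alcohol dehydrogenase, and then breathed ethanol vapor for 16 h per day in 4 weekly cycles. The 8 control mice received the same pyrazole with saline and breathed air in the same kind of chamber. Pyrazole was therefore common to both groups, and no library came from a mouse without it.

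HSP90 is an ATP-driven chaperone that finishes the folding of proteins already bound by HSP70, among them steroid hormone receptors and many kinases. Co-chaperones bring it its clients and set the pace of its ATPase cycle. In mitochondria, HSP60 forms a barrel that encloses an unfolded protein under a lid of HSP10. Genes of these proteins are classical targets of heat shock factor 1 (HSF1), which binds repeats of the 5-base unit nGAAn in alternating orientation, and brain cells transcribe many of them at high levels without any heat stress.

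RefSeq promoter windows, from 250 bases before to 50 bases after a start site, were matched for 8 of the 10 genes, not including Hsp90aa1 and Hsp90ab1. Each window was searched on both strands for a pair of inverted units (GAANNTTC or TTCNNGAA) and for 3 alternating units (GAANNTTCNNGAA or TTCNNGAANNTTC), which contain the pair. A pair was present in 4 of the 8 matched genes and in 17% of the 27025 genes that have a window, and 3 units were present in 3 of the 8 and in 0.662% of those genes. The sites found are shown because the genes that carry them are among those compared below. They are written 5′ to 3′ on the strand of the gene, with the units in capitals:
Hspd1: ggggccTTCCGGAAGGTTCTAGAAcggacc
Hspe1: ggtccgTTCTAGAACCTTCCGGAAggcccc
Chordc1, first site: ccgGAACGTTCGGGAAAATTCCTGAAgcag
Chordc1, second site: cagtaccggcggcTTCCGGAAgctagctgc
Fkbp4: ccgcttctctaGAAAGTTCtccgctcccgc
The first pair of lines is one element read on either strand (chr1:55088053-55088082, GRCm38.p6). Hspd1 and Hspe1 lie head to head. This element is placed from -144 to -127 of an Hspd1 start site (chr1:55087932) on the minus strand. It lies from -89 to -72 of the Hspe1 start site on the plus strand. The window of another Hspd1 start site (chr1:55088243) held 0 matches. The first Chordc1 site (chr9:18292260-18292289, plus strand) spans the start site itself, from -4 to 19. The second (chr9:18292287-18292316) lies at 34 to 41, and the Fkbp4 site (chr6:128438789-128438818, minus strand) at -151 to -144. No match was found in the windows of Stip1, Ahsa1, Cacybp and Ptges3, which says only that these letters are not in those windows. Of the 176 other genes with 3 units, after CIE astrocytes had 54 tested, 2 lower (BC065397 and Hsph1) and 2 higher, microglia 48 tested, 2 lower (Hsph1 and Slc29a1) and 1 higher, and total homogenate 59 tested and 0 called. The lower ones were 3.70% in astrocytes and 4.17% in microglia, where 2.22% and 1.15% of all genes were lower.

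Library totals ran from 571878 to 6026453 counts for microglia, from 2082289 to 10041788 for astrocytes and from 5042926 to 15594154 for total homogenate. The lowest count of any of the 10 genes was 23, for Hspe1 in a microglia library. In control mice the enriched preparations carried their own markers: the water channel gene Aqp4 averaged 162.5 CPM (counts scaled to library size) in total homogenate, 508.9 in astrocytes and 8.0 in microglia, and Tmem119, a microglial gene, averaged 44.1, 253.8 and 2184. The astrocyte libraries also held RNA of other cells, since the sum of 8 oligodendrocyte markers was 17530 to 25166 CPM in control astrocyte libraries and that of 10 astrocyte markers 12930 to 22877.

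In control mice the 2 cytosolic HSP90 genes stood above the other 8 in every preparation. Levels are given here as CPM on a scale common to all libraries, divided by the length of the merged exons in kb. Hsp90ab1, the constitutive HSP90 gene (chr17:45567775-45573271 in GRCm38, as all gene positions here), had 911 ± 136 CPM per kb (SD, n = 8) in microglia, followed by astrocytes at 530.5 ± 32.3 and total homogenate at 479.99 ± 43.9. Hsp90aa1, the more stress-responsive gene (chr12:110690605-110702728), came next at 301 ± 65.8, 196 ± 15.99 and 151 ± 19.5 CPM per kb in the same order. The lowest Hsp90ab1 library lay above the highest Hsp90aa1 library in each preparation. Hsp90aa1 has 3 near-identical pseudogenes and Hsp90ab1 has 0. Reads that mapped to more than 1 place were counted in no gene, so Hsp90aa1 may be undercounted. The size of this was not tested.

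Below them the order was less distinct. In astrocytes Fkbp4, Ahsa1, Stip1, Ptges3, Hspd1 and Hspe1 followed between 71.7 and 43.9 CPM per kb, and each overlapped its neighbour in that order. Cacybp (20.5) and Chordc1 (8.54) came last, and their astrocyte libraries overlapped neither each other nor those of Hspe1. In microglia the chaperonin genes Hspe1 (85.5 ± 35.96) and Hspd1 (78.7 ± 19.1) followed the HSP90 genes, with ranges that overlapped one another and that of Stip1 (65.0 ± 11.4). In total homogenate Stip1, Ahsa1, Fkbp4, Hspd1, Hspe1 and Ptges3 followed between 63.8 and 36.8 CPM per kb, each overlapping its neighbour, and Cacybp (21.4) and Chordc1 (6.87) were again last and apart.

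**Figure D1:**
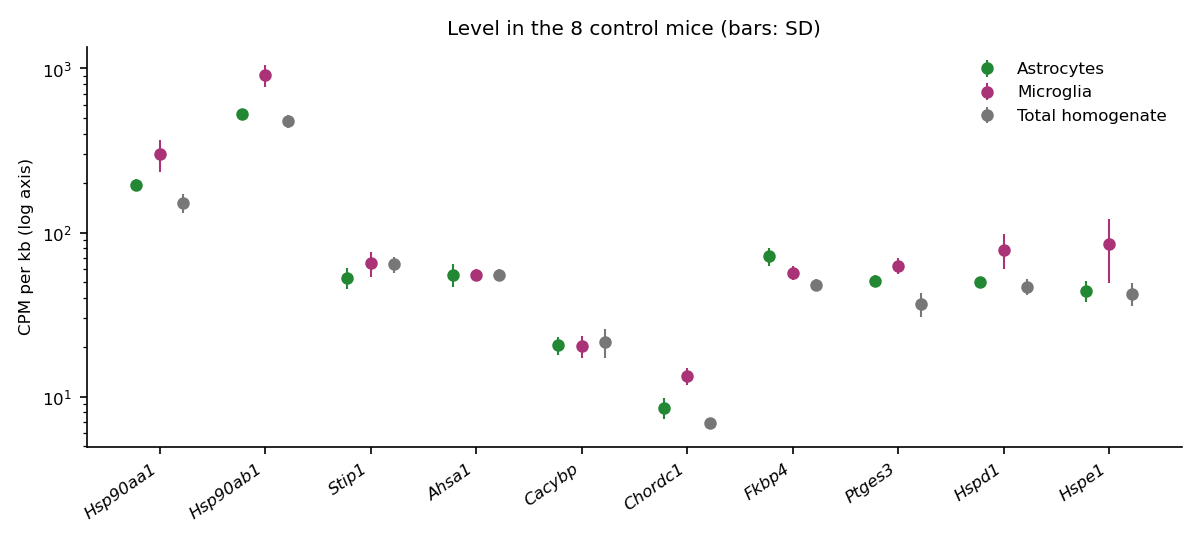
Level of each gene in the 8 control mice, as CPM per kb of merged exon on a log axis, with 1 point per preparation at the mean and bars of 1 SD. Hsp90ab1 lies highest in all 3 preparations, Chordc1 lowest, and the microglia points of both HSP90 genes, Chordc1, Ptges3, Hspd1 and Hspe1 lie above the other preparations.

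Between preparations of control mice, most of these genes were highest in microglia. The edgeR quasi-likelihood test with Benjamini-Hochberg adjustment over 13672 genes called 7 of the 10 higher in microglia than in total homogenate, where 39.8% of all genes were called higher and 44.6% lower. The log2 differences were 1.08 for Hspe1 (SE 0.171), 1.06 for Hsp90aa1 (0.125), 1.02 for Chordc1 (0.0937), 0.99 for Hsp90ab1 (0.108), 0.84 for Ptges3 (0.0972), 0.83 for Hspd1 (0.117) and 0.31 for Fkbp4 (0.0865). Against astrocytes, 7 were higher in microglia (35.3% of all genes) and Fkbp4 alone was lower, by 0.36 on the log2 scale (36.6% of all genes). Hspe1 differed most there, at 0.93 (0.175), followed by Hsp90ab1 at 0.76 (0.107) and Hspd1 at 0.63 (0.117). Total homogenate was set aside before dissociation, and microglia were captured after astrocytes. Cell type and handling therefore cannot be told apart in these comparisons of levels. The inducible HSP70 gene Hspa1a averaged 14.1 CPM in control homogenate, 547 in control astrocytes and 1619 in control microglia, each scaled within its preparation.

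Astrocytes exceeded total homogenate for 5 of the 10 genes, a share near the 41% of all genes called higher, and 0 were called lower (37.8% of all genes). The 5 were Fkbp4 (0.67, SE 0.0844), Ptges3 (0.55, 0.0948), Hsp90aa1 (0.46, 0.123), Chordc1 (0.41, 0.0904) and Hsp90ab1 (0.24, 0.107). Ahsa1 and Cacybp passed in no pair of preparations. The preparations come from the same mice, and with the mouse as a replicate block Hsp90ab1 was no longer called between astrocytes and total homogenate (0.23, adjusted p = 0.0777). That call of Hsp90ab1 also ended without any 1 of the 8 mice (adjusted p up to 0.276), and other calls ended for Stip1 between microglia and astrocytes without mouse 19, 20, 22, 36 or 37 (up to 0.200), for Ptges3 in that pair without mouse 19 or 36 (up to 0.0529), and for Fkbp4 between microglia and total homogenate without mouse 19 or 20 (up to 0.0753). The Fkbp4 difference in that pair was 0.09 with library size alone (adjusted p = 0.407) and 0.18 with no filter (adjusted p = 0.0973). Scaling by library size alone moved the median of all genes between microglia and astrocytes from -0.02 to -0.31 and left 5 genes higher in microglia and 3 lower, and with RLE scaling Stip1 was called lower in astrocytes than in total homogenate (-0.24, adjusted p = 0.0487).

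After CIE the HSP90 genes were lower in both enriched preparations. Levels from here on are CPM scaled within a preparation, and folds are log2 fold changes of CIE against control from edgeR, with adjusted p over all genes tested in that preparation. In astrocytes, 6 of the 10 genes were called lower where 2.22% of 12878 genes were, and 0 were called higher (2.91% of all genes). All 10 log2 fold changes were below 0, as were 49.3% of those of all genes, and their median was -0.33 against 0.00 for all genes. In microglia, 6 of the 10 were called lower where 1.15% of 10761 genes were, and 0 higher (2.31%). Again all 10 were below 0 (51% of all genes), with a median of -0.53 against -0.01 for all genes. DESeq2 called 7 lower in each.

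Those 2 counts were smaller without a pair of mice chosen after the data were seen. The pair is lowest in these same genes, so a smaller effect without it follows from the choice. Calls over all genes fell in that fit too, from 661 to 234 in astrocytes and from 373 to 133 in microglia. CIE mice 25 and 26 had the lowest mean level of the 10 genes in every preparation, and without both of them 1 gene was called lower in astrocytes (Hsp90ab1, -0.39, adjusted p = 0.0219) and 1 in microglia (Stip1, -0.58, adjusted p = 0.0423), with all 10 log2 fold changes still below 0 in each. In these bulk samples, fewer cells of a type and less RNA per cell cannot be told apart.

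**Figure D2:**
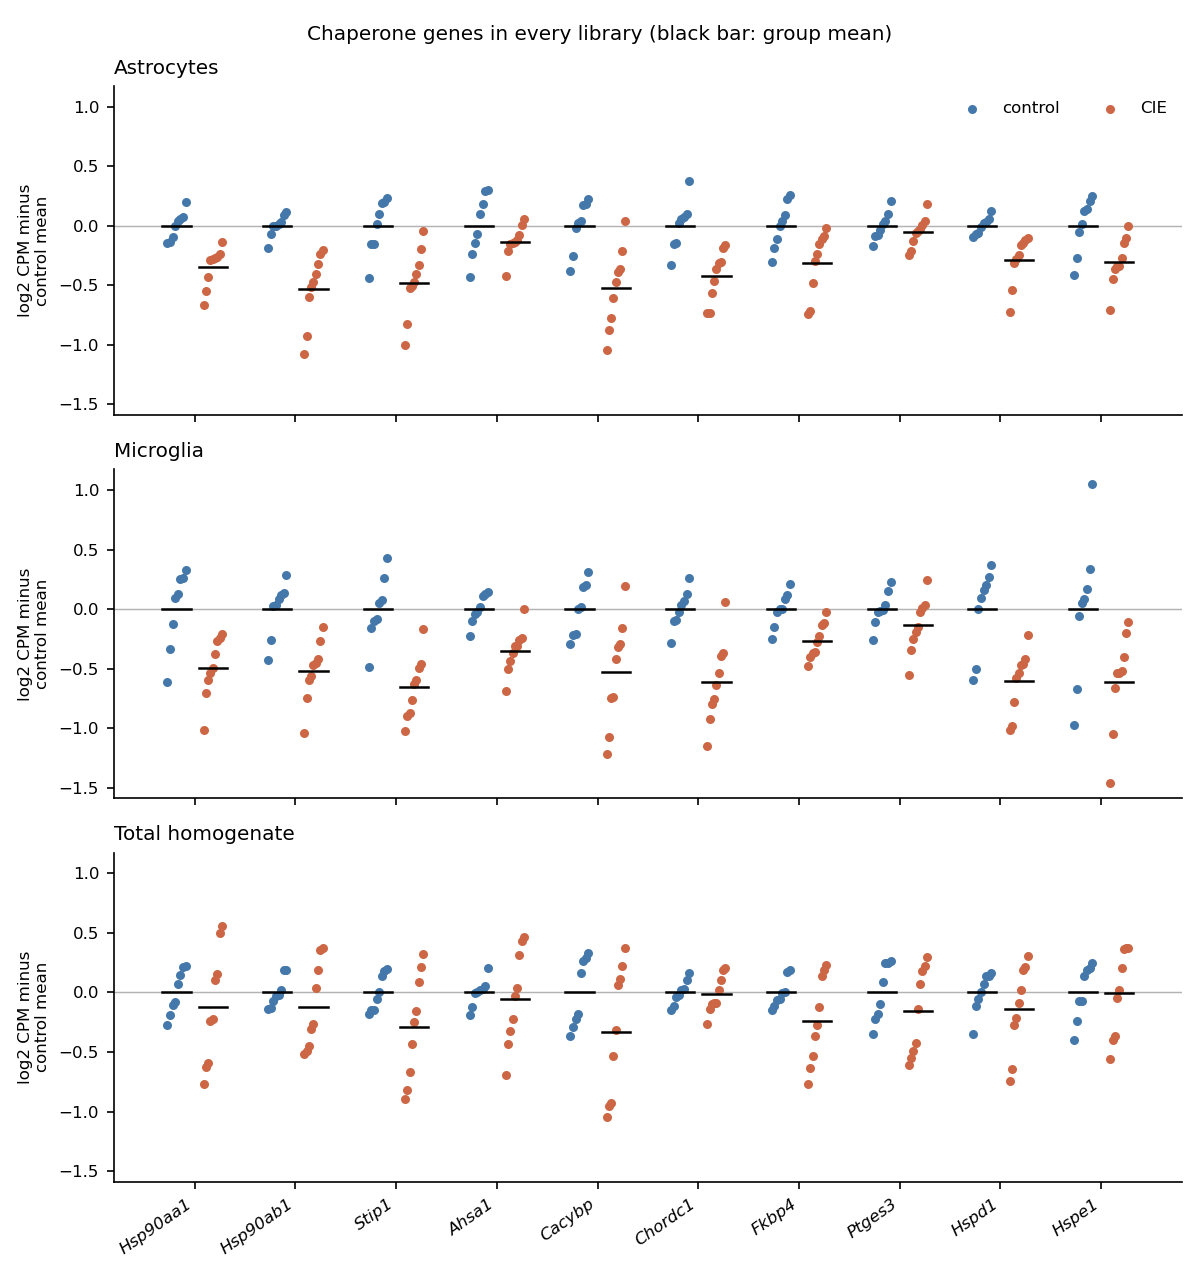
Every library of each gene, as log2 CPM minus the mean of the control libraries of that preparation, with control mice (n = 8) in blue, CIE mice (n = 9) in orange and black bars at group means. In astrocytes and microglia the orange points lie mostly below the blue ones. In total homogenate they lie on both sides.

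Hsp90aa1 in astrocytes had 665 CPM in the lowest, 744 in the median and 843 in the highest control library, and 463, 606 and 667 in CIE libraries. Of the 9 CIE libraries, 8 lay below every control library. The log2 fold change was -0.34 (SE 0.0795, adjusted p = 0.0189). In microglia the control libraries held 590, 972 and 1133 CPM and the CIE libraries 446, 637 and 779, with a log2 fold change of -0.51 (SE 0.137, adjusted p = 0.0440). The groups overlapped there, since 2 of the 9 CIE libraries lay below every control library.

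Hsp90ab1 was the most abundant of the genes and its astrocyte groups did not overlap. The control libraries held 1302, 1492 and 1608 CPM and the CIE libraries 704, 1069 and 1288, a log2 fold change of -0.51 (SE 0.109, adjusted p = 0.0121). Every CIE library lay below every control library for 0.186% of all genes in astrocytes, and for Hsp90ab1 and Hspd1 among these 10. In microglia the values were 1532, 2145 and 2504 CPM in control and 999, 1486 and 1852 in CIE, a log2 fold change of -0.52 (SE 0.124, adjusted p = 0.0249), with 6 of 9 CIE libraries below every control library. None of the 10 genes separated the groups in microglia, as 0.223% of all genes did.

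The 2 HSP90 genes can be compared within a library, where no scaling enters. The limit on Hsp90aa1 counts given above holds for these ratios too. In astrocytes there were on average 0.494 Hsp90aa1 counts for each Hsp90ab1 count in control mice and 0.561 in CIE mice, a difference of 0.18 on the log2 scale (two-sided exact permutation test over 24310 splits, p = 0.0376, and 0.165 adjusted over 6 ratio tests), and 6 of 9 CIE mice were above the control median. In microglia the means were 0.438 and 0.447 (exact permutation p = 0.766, adjusted 0.982). Neither difference passed the threshold after adjustment.

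Among the co-chaperones, Stip1 and Chordc1 were called lower in both enriched preparations. Stip1 encodes HOP, which bridges HSP70 and HSP90 (chr19:7020702-7039967). Astrocytes of control mice had 90.9, 128 and 145 CPM in the lowest, median and highest library and those of CIE mice 61.5, 89.1 and 119, a log2 fold change of -0.47 (SE 0.118, adjusted p = 0.0260). Microglia had 87.6, 121 and 165 CPM in control and 60.1, 79.3 and 109 in CIE, and the log2 fold change of -0.65 (SE 0.128, adjusted p = 0.00771) had the smallest p of the 10 genes in microglia. In that preparation 7 of 9 CIE libraries lay below every control library.

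Chordc1 encodes CHORD domain protein 1, also called morgana, an HSP90-binding protein (chr9:18292125-18317442). In astrocytes its control libraries held 44.1, 57.0 and 72.0 CPM and its CIE libraries 33.4, 43.2 and 49.5, a log2 fold change of -0.43 (SE 0.101, adjusted p = 0.0190). In microglia it had 58.0, 71.0 and 84.8 CPM in control and 31.7, 45.3 and 73.6 in CIE, a log2 fold change of -0.60 (SE 0.134, adjusted p = 0.0172). All but 1 of the 9 CIE microglia libraries lay below every control library. An antisense pseudogene, Gm19178, overlaps Chordc1, and the strand setting of the counting is not given in the sources used here.

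Cacybp and Ahsa1 were each called by edgeR in 1 preparation. Cacybp, which encodes a calcyclin-binding protein with HSP90 co-chaperone activity (chr1:160202367-160212875), had 36.5, 48.5 and 55.4 CPM in control and 23.1, 34.1 and 48.8 in CIE astrocytes (log2 fold change -0.51, SE 0.127, adjusted p = 0.0255). Its microglia value was of like size but missed the threshold (-0.53, SE 0.162, adjusted p = 0.0764), which it passed with DESeq2 (0.0406) and with mouse number range as a covariate (-0.55, adjusted p = 0.0450). Ahsa1, which encodes AHA1, an activator of the HSP90 ATPase (chr12:87266479-87273998), had 58.9, 68.7 and 76.0 CPM in control and 42.7, 55.5 and 68.8 in CIE microglia (-0.35, SE 0.0912, adjusted p = 0.0367), with 8 of 9 CIE libraries below every control library. In astrocytes its value was -0.15 (SE 0.0951, adjusted p = 0.40). These differences between the preparations did not pass a test of their own, as given below.

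Fkbp4 and Ptges3 were called in neither, except that Fkbp4 passed in astrocytes with mouse number range as a covariate (-0.30, adjusted p = 0.0421). Fkbp4 encodes FKBP52, an immunophilin of the steroid receptor complex (chr6:128429735-128438677). It had log2 fold changes of -0.30 in astrocytes (SE 0.108, adjusted p = 0.105) and -0.26 in microglia (SE 0.0872, adjusted p = 0.101), and all 9 CIE mice were below the control median in each. Ptges3 encodes p23, which stabilises the closed form of HSP90 (chr10:128058954-128077272). It showed the smallest values of the 10, at -0.05 (SE 0.0681, adjusted p = 0.725) and -0.14 (SE 0.102, adjusted p = 0.580), with 6 of 9 CIE mice below the control median in each.

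The mitochondrial pair behaved alike in sign. Hspd1, the HSP60 gene (chr1:55077835-55088243, minus strand), had 126, 135 and 147 CPM in control astrocytes and 81.9, 114 and 126 in CIE astrocytes. The groups did not overlap, though the highest CIE library came within rounding of the lowest control library, and the log2 fold change was -0.28 (SE 0.0794, adjusted p = 0.0449). In microglia it had 111, 183 and 217 CPM in control and 83.1, 116 and 144 in CIE, a log2 fold change of -0.64 (SE 0.140, adjusted p = 0.0157). Hspe1, the HSP10 gene (chr1:55088132-55091307, plus strand), gave -0.31 in astrocytes (SE 0.102, adjusted p = 0.0842, and 0.0428 with DESeq2) and -0.69 in microglia (SE 0.220, adjusted p = 0.0891, and 0.0333 with the share of reads in no gene as a covariate). The microglia estimate was the largest in size of the 10 and had the widest error, as control libraries of Hspe1 ran from 28.3 to 115 CPM.

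The ratio of Hspe1 to Hspd1 counts was 0.278 in control and 0.276 in CIE astrocytes, and 0.331 and 0.330 in microglia, so no change in their proportion was detected (exact permutation p = 0.907 and 0.982, each 0.982 adjusted over the 6 ratio tests). The log2 ratio of single microglia libraries ran from -1.97 to -0.54 in control mice.

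**Figure D3:**
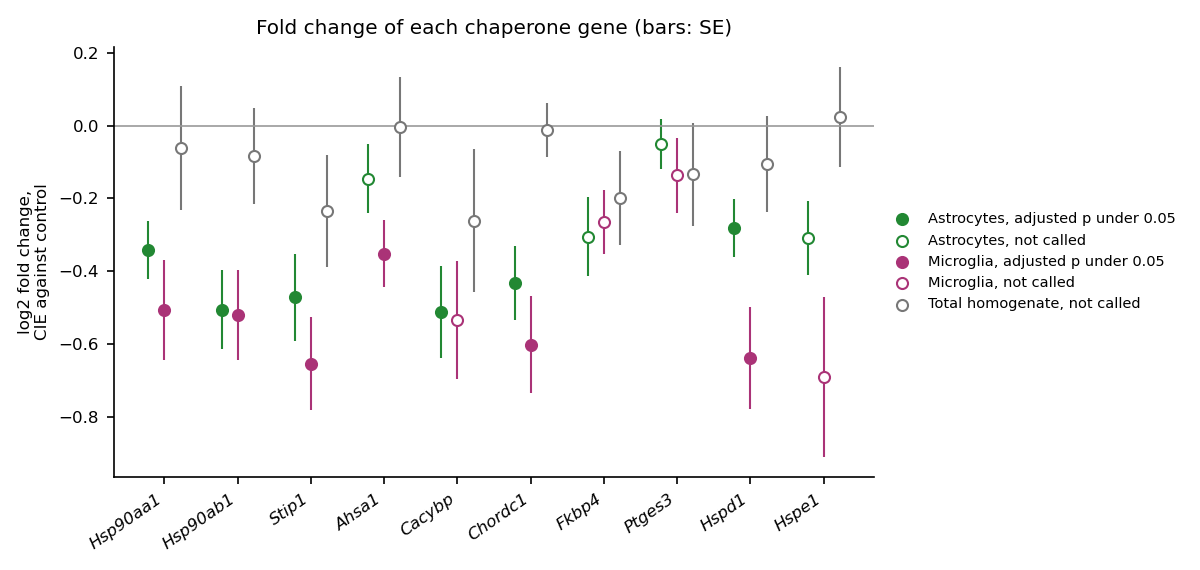
Log2 fold change of CIE against control for each gene in 3 preparations, with bars of 1 SE. Filled points have an adjusted p under 0.05, which holds for 6 genes in each enriched preparation and for 0 in total homogenate.

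In total homogenate 0 of the 10 genes were called lower and 0 higher (0.0572% and 0.193% of 13982 genes), by edgeR and by DESeq2, and 0 had an unadjusted p under 0.05. The log2 fold changes ran from -0.26 for Cacybp (SE 0.195, adjusted p = 0.763) to 0.02 for Hspe1 (SE 0.138, adjusted p = 0.989), and 9 of 10 were below 0, where 48.1% of all genes were. The HSP90 genes spread widely between CIE mice: Hsp90aa1 had 417, 502 and 589 CPM in control and 296, 432 and 744 in CIE libraries, and Hsp90ab1 1083, 1174 and 1363 against 837, 995 and 1547. No gene of the 10 separated the groups, as 0.0286% of all genes did. The ratio of Hspe1 to Hspd1 counts was 0.288 in control and 0.316 in CIE mice (exact permutation p = 0.0550, adjusted 0.165), with 8 of 9 CIE mice above the control median, and that of Hsp90aa1 to Hsp90ab1 was 0.422 and 0.420 (exact permutation p = 0.929, adjusted 0.982).

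Mouse numbers fell into 3 ranges, 03 to 08 (2 control and 2 CIE mice), 19 to 26 (3 and 4) and 35 to 41 (3 and 3), and the labels do not say what a range stands for. Within them, the difference between CIE and control mice in mean log2 CPM was below 0 in astrocytes for 10, 10 and 8 of the 10 genes, with medians of -0.34, -0.51 and -0.13. In microglia it was below 0 for 9, 10 and 10 genes, with medians of -0.27, -0.58 and -0.43. In total homogenate it was below 0 for 9, 10 and 2 genes, with medians of -0.06, -0.40 and 0.15, so the sign of the median there differed between the second and the last range. The 10 genes varied together from mouse to mouse (median r 0.88 in total homogenate, described below), so these counts are not separate observations. Shares over all genes were not computed within ranges.

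The mean over the 10 genes shows which mice carried this. In astrocytes it was -0.70 in mouse 25 and -0.62 in mouse 26, on the log2 scale relative to the control mean, and between -0.37 and -0.09 in the other 7 CIE mice, while control mice ran from -0.26 to 0.13. In microglia the same mice had -0.78 and -0.84, the other CIE mice -0.50 to -0.24 and control mice -0.20 to 0.23. In total homogenate mice 23, 25 and 26 had -0.45, -0.60 and -0.64, and mice 39, 40 and 41 had 0.29, 0.18 and 0.33, the highest of all 17.

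**Figure D4:**
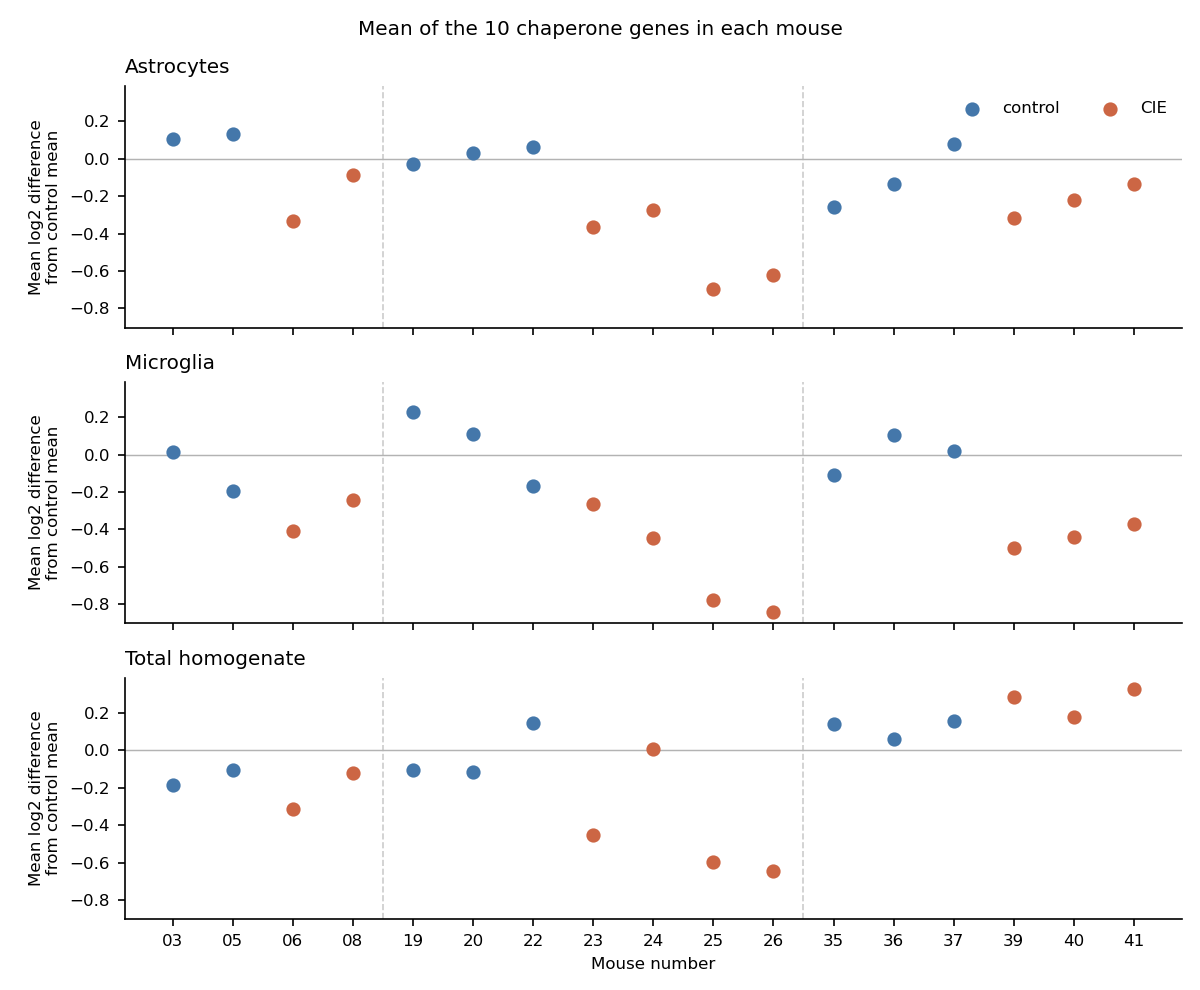
Mean of the 10 genes in each mouse, as the mean log2 CPM difference from the control mean of that preparation, against mouse number, with control mice in blue and CIE mice in orange. Dashed lines part the 3 ranges of mouse numbers. CIE mice 25 and 26 lie lowest in all 3 preparations, and CIE mice 39 to 41 lie highest in total homogenate.

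The same homogenate libraries differed in the share of reads that fell in no gene. It was 34.5%, 29.8% and 41% in mice 23, 25 and 26, and 19.3%, 16.7% and 13.1% in mice 39, 40 and 41. Control homogenate ran from 19.2% to 30.3%, so mice 23 and 26 lay above and mice 40 and 41 below every control mouse. In astrocytes this share had a median of 24.9% in control and 16.7% in CIE libraries, and in microglia of 20.4% and 27.2%. With the share as a covariate, chosen after the data were seen, 2 genes were called lower in astrocytes (Hsp90aa1, adjusted p = 0.0455, and Hsp90ab1, 0.0380), 7 in microglia and 0 in total homogenate, and the log2 fold changes below 0 numbered 10, 10 and 9. The folds of the astrocyte genes no longer called were -0.49 for Stip1, -0.54 for Cacybp, -0.37 for Chordc1 and -0.31 for Hspd1, and the median of the 10 was -0.36.

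Single mice also decided calls near the threshold. In astrocytes Hsp90aa1, Hsp90ab1 and Chordc1 were called with any 1 mouse left out. Stip1 and Cacybp were lost without mouse 22 (adjusted p = 0.0584 and 0.0568) and without mouse 26 (0.0546 and 0.0528), and those mice gave the lowest count, 3 genes. Hspd1 was lost without any 1 of mice 05, 06, 19, 20, 22, 23, 24, 25, 26, 36 and 37, at adjusted p from 0.0502 to 0.0901. In microglia Stip1, Chordc1 and Hspd1 were called with any 1 mouse left out. Hsp90ab1 was lost without mouse 19, 20, 24, 25, 35 or 36 (0.05003 to 0.0580), Ahsa1 without mouse 03, 05, 19, 20, 24, 25, 26, 36, 37 or 39 (0.0522 to 0.0838) and Hsp90aa1 without mouse 03, 19, 20, 24, 25, 26, 35, 36, 37, 39, 40 or 41 (0.0529 to 0.1003). The count in microglia fell to 3 genes without mouse 19, 20, 24, 25 or 36. All 10 log2 fold changes stayed below 0 in each of these fits.

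Markers of other cells moved with CIE in the microglia libraries. All 8 neutrophil markers tested of 9 listed were called higher there, among them S100a8 (2.95, adjusted p = 0.0204) and Cxcr2 (3.38, adjusted p = 0.00223), and the sum of the list, per library total, was 83.9 to 201 CPM in control libraries and 57.4 to 6704 in CIE libraries. It was 885, 1708, 1006 and 6704 CPM in mice 23, 26, 39 and 41. The mean of the 10 chaperone genes was -0.26, -0.84, -0.50 and -0.37 in those mice, and -0.41, -0.24, -0.45, -0.78 and -0.44 in CIE mice 06, 08, 24, 25 and 40. Without those 4 mice, a choice made after the data were seen, 0 of the 10 genes were called in microglia, with all 10 log2 fold changes below 0 and a median of -0.46. The smallest adjusted p was then 0.0557, for Cacybp, at 8 control and 5 CIE mice. The 10 microglial markers were all below 0 in CIE microglia, with 1 called by edgeR (Fcrls, -1.06, adjusted p = 0.00864), 5 at an unadjusted p under 0.05 and 3 called lower by DESeq2, at sums of 26807 to 39481 CPM in control and 20125 to 29334 in CIE. Of 8 oligodendrocyte markers 0 were below 0 in microglia, with a median of 0.59, and 4 had an unadjusted p under 0.05. The median of their sums was 3804 CPM in control and 6213 in CIE libraries. Among them edgeR called Mobp higher (1.70, adjusted p = 0.00530) and DESeq2 called 3. Of 8 border macrophage markers edgeR called 0 and DESeq2 1. In total homogenate edgeR called 0 markers of any list. An unadjusted p under 0.05 was reached by 5 neutrophil, 3 oligodendrocyte, 3 border macrophage, 2 microglial, 1 astrocyte, 1 endothelial and 0 neuron markers. DESeq2 called 5 of 9 neutrophil, 1 endothelial and 1 border macrophage marker higher and 1 microglial marker lower. Below 0 in total homogenate were 0 of 8 oligodendrocyte markers (median 0.45) and 8 of 10 astrocyte markers (median -0.10). The same held there for 0 of 5 neutrophil markers tested (median 3.40) and 0 of 5 border macrophage markers tested (median 1.26). In astrocytes 0 of 10 astrocyte markers were called by either tool and 0 had an unadjusted p under 0.05. Of these markers 9 were below 0, with a median of -0.14. Their sums were 12930 to 22877 CPM in control libraries and 11812 to 19787 in CIE libraries. The medians of the sums were 19150 and 15932 CPM. Called higher in astrocyte libraries were Mobp (1.03, adjusted p = 0.0127) of 8 oligodendrocyte and Tubb3 (1.09, adjusted p = 0.00628) of 9 neuron markers. Cd163 (1.37, adjusted p = 0.0103) and Siglec1 (1.51, adjusted p = 0.0210) of 7 border macrophage markers were also called higher. Most of the neuron list went the other way, with 7 of 9 below 0 and a median of -0.39. Below 0 were 2 of the 8 oligodendrocyte markers (median 0.10) and 1 of the 7 border macrophage markers (median 0.80). Of 10 microglial and 8 endothelial markers 0 were called. For neutrophils 0 markers passed the filter on low counts, though DESeq2, run without it, called 4 of 9 higher. The part of these cells in the chaperone values was not tested.

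A response called in one preparation and not in another is not thereby shown to differ, so the difference was tested itself, over 14379 genes. Chordc1 was the only gene of the 10 to pass: its log2 fold change was lower in microglia than in total homogenate by 0.61 (difference -0.61, SE 0.148, 95% interval -0.91 to -0.31, adjusted p = 0.0296), where 0.264% of all genes had a lower response. Total homogenate itself held 36.1, 39.96 and 44.9 CPM of Chordc1 in control and 33.3, 37.6 and 46.2 in CIE mice (-0.01, SE 0.0739, adjusted p = 0.990). The call ended without mouse 05 (0.0617), 20 (0.0653), 36 (0.0875) or 39 (0.0728). All 10 differences between microglia and total homogenate were below 0, with a median of -0.44 against -0.02 for all genes, and 7 of them had an unadjusted p under 0.05. The share of all genes at that unadjusted p was not computed for any pair of preparations, and the 10 genes are correlated. For Hspe1 the difference was -0.73 (95% interval -1.20 to -0.26, adjusted p = 0.132) and for Hspd1 -0.56 (-0.92 to -0.19, adjusted p = 0.143).

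Between astrocytes and total homogenate 0 of the 10 differences passed (0% of all genes were lower), and 2 had an unadjusted p under 0.05, Hsp90ab1 (-0.42, 95% interval -0.77 to -0.06) and Chordc1 (-0.41, -0.70 to -0.12). Between microglia and astrocytes 0 passed (0.118% of all genes were lower), and 1 had an unadjusted p under 0.05, Hspd1 (-0.39, 95% interval -0.75 to -0.02). The interval for Hsp90ab1 between microglia and astrocytes ran from -0.39 to 0.32.

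**Figure D5:**
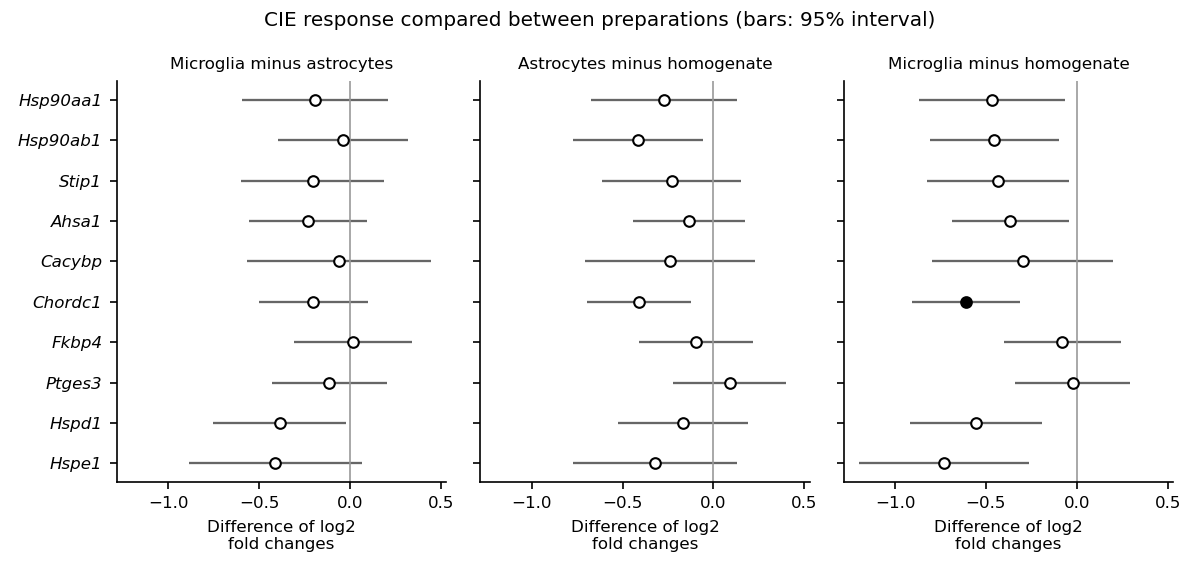
Difference of the log2 fold changes between each pair of preparations, with 95% intervals and a filled point for an adjusted p under 0.05. The filled point is Chordc1 between microglia and total homogenate, at -0.61.

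Other genes of the HSP90 machinery were called in both directions. Of 26 further HSP90 genes and co-chaperones, 1 was called lower and 1 higher in astrocytes, with 11 below 0, 3 at an unadjusted p under 0.05 and a median of 0.04. The lower was Ahsa2, a second AHA1-like gene (-0.62, adjusted p = 0.0432), and the higher was Fkbp5, an immunophilin gene induced by glucocorticoids (2.04, SE 0.422, adjusted p = 0.0104), whose mean went from 26.001 to 107 CPM. In microglia St13, which encodes the HSP70-interacting protein HIP, was lower (-0.53, adjusted p = 0.0139) and Cdc37l1, a relative of the kinase co-chaperone CDC37, was higher (0.54, adjusted p = 0.0195), with 17 of 26 below 0, 6 at an unadjusted p under 0.05 and a median of -0.04. Fkbp5 there was 1.31 (adjusted p = 0.0903). Fkbp4 and Fkbp5, immunophilins that bind HSP90 at the same place, thus had estimates of opposite sign in both preparations. In the main test Fkbp4 was called in neither of them and Fkbp5 in astrocytes alone. In total homogenate 0 of 26 were called by edgeR, 1 had an unadjusted p under 0.05, and DESeq2 called 1 higher.

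The mitochondrial chaperonin was set beside 14 other mitochondrial folding and protease genes. None was called by edgeR or DESeq2 in any preparation, 1 had an unadjusted p under 0.05 in astrocytes and 0 in the others, and their medians were -0.01 in astrocytes and total homogenate and 0.00 in microglia. Trap1, the mitochondrial HSP90 and a member of both lists, had -0.08 in astrocytes (adjusted p = 0.476) and -0.05 in total homogenate (adjusted p = 0.875). Of the cytosolic chaperonin and prefoldin genes, 0 of 14 were called in astrocytes (1 with an unadjusted p under 0.05, 0 by DESeq2), 2 of 13 were lower in microglia, Cct4 (-0.32, adjusted p = 0.0297) and Cct3 (-0.28, adjusted p = 0.0393), and 0 of 14 were called in total homogenate by either tool, with 0 at an unadjusted p under 0.05.

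A list of 18 genes, Hsf1, Hsf2 and HSF1 targets outside the 10, gave more calls. In astrocytes 5 of 18 were lower, with 14 below 0 and a median of -0.28, among them Hsph1, which encodes the HSP70 exchange factor HSP110 (-0.87, adjusted p = 0.00383), Hspa1a (-1.19, adjusted p = 0.0123) and Hspa1b (-1.26, adjusted p = 0.0207), the inducible HSP70 genes, and Dnaja1, an HSP40 gene (-0.53, adjusted p = 0.0132). In microglia 4 of 18 were lower, Hsph1 (-1.44, adjusted p = 0.00223), Bag3 (-0.81, adjusted p = 0.00753), Hspa1a (-1.27, adjusted p = 0.0206) and Dnaja1 (-0.70, adjusted p = 0.0390). In total homogenate Hspa1a alone was called (-0.49, adjusted p = 0.0301). Hspa1a averaged 547 CPM in control astrocytes, 1619 in control microglia and 14.1 in control homogenate.

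The HSP90-dependent receptors gave no call in any preparation by edgeR or DESeq2, and their numbers at an unadjusted p under 0.05 were 1 of 6 for astrocytes, 0 of 4 for microglia and 0 of 7 for total homogenate. Nr3c1, the glucocorticoid receptor gene, had -0.19 in astrocytes (adjusted p = 0.219) and -0.21 in microglia (adjusted p = 0.548). The 13 immediate early genes, which mark tissue dissociation, gave 0 calls in each preparation by either tool, with 0, 2 and 1 at an unadjusted p under 0.05. In microglia 11 of the 13 were below 0, with a median of -0.17, and in astrocytes and total homogenate 6 each, with medians of 0.02 and 0.00. Their sums were 4669 to 12805 CPM in control and 5535 to 13114 in CIE astrocytes, 23705 to 42666 and 21502 to 40138 in microglia, and 747 to 1108 and 570.0 to 1289 in total homogenate. Their part in the lower levels of the chaperone genes was not tested.

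With group means removed, the 10 genes varied together from mouse to mouse to a different degree in each preparation. Over the 45 pairs and 17 libraries, Pearson's r had a median of 0.88 in total homogenate (0.40 to 0.97), 0.66 in astrocytes (0.19 to 0.94) and 0.32 in microglia (-0.22 to 0.82). The points share library depth and RNA quality, and these r are a description. The member least like the others was Hsp90aa1 in astrocytes and microglia and Chordc1 in total homogenate. Among other genes of at least 5 CPM, those closest to the mean of the 10 included Tst, Paqr7, Mtfp1 and Cct5 in astrocytes (r 0.91 to 0.89), Lag3, St3gal5, Ak1, Dnajb1 and Hspa1a in microglia (0.86 to 0.80) and Tubb4b, Ubqln1, Coa3, Cct7 and Mea1 in total homogenate (all 0.98).

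Some counts carry an uncertainty of assignment. Transcripts of Hsp90aa1 and Hspd1 each match 3 pseudogenes at 95% identity or more over at least 150 bases, the longest being Gm12346 (2255 bases, 99.5%) and Hspd1-ps3 (1722 bases, 99.0%). Ptges3 matches Ptges3-ps over 480 bases and Hspe1 another gene model over 515 bases. Hsp90ab1 matches 0 other genes by the same limits. Hspd1 and Hspe1 overlap by 112 bases on opposite strands. Reads that mapped to more than 1 place were counted in no gene, and they made up 12.6% to 40.6% of the reads of a microglia library, 8.30% to 24.9% of an astrocyte library and 8.47% to 16.9% of a homogenate library.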

How the data were processed

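RNA was measured in 51 libraries of 17 mice. As the authors describe, reads were demultiplexed with bcl2fastq 2.17, trimmed with Cutadapt 1.8, aligned to mm10 with STAR 2.5.0a, freed of duplicates with Picard 1.141 and counted with HTSeq 0.6.1p1. The deposited values are whole counts per gene symbol, with no normalization. Annotation release and strand setting are not given in the sources used here. The authors left out 4 microglia samples of low RNA and 3 outlying samples, and these are not analysed here. The 5 summary lines of HTSeq were kept out of library sizes and tests, and among them reads in no gene were 11.3% to 41% and reads not unique 8.30% to 40.6% of a library.

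Groups were taken from the labels. The main test of CIE against control used edgeR (version 4.0.16, under R 4.3.3) within 1 preparation at a time, with filterByExpr, TMM scaling, the quasi-likelihood F test, Benjamini-Hochberg adjustment over all genes tested and a threshold of 0.05. No covariate was used. Standard errors were derived from the fold change and its F value. Levels in control mice and differences of the response were tested by contrasts in 1 model over preparations. Ratios of counts were tested by exact permutation, with all splits enumerated using numpy (2.4.6) and pandas (2.3.3) under Python 3.11.15. That routine was compared with the permutation test of scipy (1.17.1) on a small made-up case. Plots were drawn with matplotlib (3.10.9). The tests were first run on simulated data. Gene positions and exon lengths come from GENCODE annotation of GRCm38 and promoter windows from RefSeq (GRCm38.p6), which matched 8 of 10 genes. The members and lists were chosen with earlier results of these data known. Named genes are all 10 members and, for each further list, up to 4 genes with the smallest adjusted p in a preparation, while markers given with values, and other genes with 3 motif units, were chosen after their values were seen.

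Alternatives were DESeq2 1.42.0 with its defaults and no prior filter, RLE scaling, library size alone, no filter, a term for mouse number range, leaving out mice, the mouse as a replicate block between preparations and 1 count added to ratios. Covariate and block fits kept the genes of the main test. Added after the data were seen were fits without mice 25 and 26, without mice 23, 26, 39 and 41 in microglia, and with the share of reads in no gene as a covariate. The pairing by mouse comes from the design, since the 3 preparations of a number are one animal. Over genes, the median correlation of same-mouse deviations was 0.15 between astrocytes and microglia, 0.11 between astrocytes and total homogenate and 0.04 between microglia and total homogenate. CIE and control mice share no number. Microglia libraries held as few as 571878 counts, and the effect of this on precision was not tested.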

Additional observations from a re-analysis of the deposited data

Results flagged for a closer look

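Chordc1 was the one gene of the 10 whose response to CIE differed between preparations by a test of the difference itself: the log2 fold change in microglia minus that in total homogenate was -0.61 (SE 0.148, edgeR adjusted p = 0.0296), and it was -0.61 (adjusted p = 0.00399) with the mouse as a replicate block. Over RLE scaling, library size alone, no filter, the block and the fit without mice 25 and 26, the adjusted p ran from 0.00399 to 0.0459. With 1 mouse left out the call held in 13 of 17 fits. It ended without mouse 05, 20, 36 or 39, at adjusted p from 0.0617 to 0.0875. No library stood apart by Dixon's test in any of the 60 groups of 1 gene, preparation and treatment, of which chance alone would flag about 1 in 20.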

How the results depend on the processing

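In astrocytes and microglia all 10 log2 fold changes were below 0 under every alternative run. In astrocytes 6 genes were called lower, and 5 to 7 under the other tool, scalings, filter and mouse number term and without the 4 mice numbered under 10. Exceptions were 1 without mice 25 and 26 and 2 with the share of reads in no gene as covariate. In microglia 6 were called, 3 with library size alone, 1 without mice 25 and 26, 0 without mice 23, 26, 39 and 41, and 5 to 7 otherwise. In total homogenate 0 were called throughout. Leaving out 1 mouse gave 3 to 7 genes in astrocytes and in microglia. The causes were not tested.

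Calls over all genes depended more on the setting. Against 661, 373 and 35 (astrocytes, microglia, total homogenate), DESeq2 gave 1166, 754 and 192, the mouse number term 1129, 775 and 81, the mice numbered 10 and over 1132, 727 and 7, the fit without mice 25 and 26 gave 234, 133 and 20, the no-gene share 251, 843 and 187, and microglia without mice 23, 26, 39 and 41 gave 87. Leaving out 1 mouse gave 354 to 1001, 182 to 684 and 15 to 71. Of the called genes in microglia 33.2% were lower, 19.8% with library size alone and 22.4% with no filter.

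Values near 0 changed sign. In total homogenate Ahsa1 became 0.00087 with RLE and 0.0138 without the mice under 10, and without mice 25 and 26 the values were 0.0854 for Hsp90aa1, 0.0249 for Hsp90ab1, 0.116 for Ahsa1, 0.0431 for Chordc1 and 0.0334 for Hspd1. Leaving out 1 mouse there gave -0.160 to 0.0145 for Hsp90aa1, -0.0711 to 0.0698 for Ahsa1, -0.0391 to 0.0238 for Chordc1 and -0.0277 to 0.0881 for Hspe1. The log2 ratio difference of Hspe1 to Hspd1 in astrocytes was 0.0473 without the mice under 10 and -0.0540 to 0.0345 with 1 mouse left out, and the same ratio ran from -0.0591 to 0.145 in microglia and from 0.0956 to 0.170 in total homogenate. Hsp90aa1 to Hsp90ab1 ran from -0.0282 to 0.0634 in microglia and from -0.0326 to 0.0278 in total homogenate.

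For levels in control mice, astrocytes minus total homogenate, 1 gene (Stip1) was called lower with RLE and with no filter, and 0 to 1 with 1 mouse left out. Cacybp was -0.0403 with RLE, -0.0622 with no filter and -0.109 to 0.0478 with 1 mouse left out, and Ahsa1 -0.0152 to 0.0926. For microglia minus total homogenate, Stip1 was -0.0163, -0.146 and -0.0545 and Ahsa1 -0.0321, -0.152 and -0.0640 with RLE, library size alone and no filter, and with 1 mouse left out -0.0754 to 0.0802 and -0.0373 to 0.0578. For microglia minus astrocytes, library size alone called 3 lower and gave -0.0481 for Stip1 and -0.0120 for Ptges3, and 65.4% of called genes were lower in place of 50.9%. With 1 mouse left out, Ahsa1 ran from -0.101 to 0.0579 and Cacybp from -0.108 to 0.0678. The median of all genes between microglia and total homogenate was -0.09, -0.20 with RLE, -0.31 with library size alone and -0.49 with no filter.

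For differences of the response, calls over all genes between astrocytes and total homogenate were 1, 0 with RLE, library size alone or without mice 25 and 26, and 0 to 2 with 1 mouse left out. Between microglia and astrocytes they were 76, 44 with no filter, 26 without mice 25 and 26, and 23 to 124. Between microglia and total homogenate they were 119, 56 without mice 25 and 26, and 49 to 188, with 0 to 2 of the 10 genes called lower. Library size alone gave 0.0373 for Hsp90ab1 and 0.0352 for Cacybp between microglia and astrocytes, 0.0149 for Fkbp4 and 0.0443 for Ptges3 between microglia and total homogenate, and changed the share of lower calls from 22.4% to 3.75% and from 31.9% to 14.8%. Fkbp4 between microglia and astrocytes was -0.0198 with no filter, -0.0629 without mice 25 and 26 and -0.0422 to 0.0903 with 1 mouse left out, Cacybp -0.161 to 0.0280, and Ptges3 between microglia and total homogenate -0.118 to 0.0650.

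With the mouse as a replicate block, Chordc1 between microglia and total homogenate was -0.61 (edgeR adjusted p = 0.00399), and 85, 1 and 113 genes were called for microglia minus astrocytes, astrocytes minus total homogenate and microglia minus total homogenate. The pairing changed no call of the 10 genes other than that of Hsp90ab1 between astrocytes and total homogenate. In microglia a count of the 10 genes could be as low as 23, and what depth limits was not tested.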
